A study of Homo sapiens with 10 samples.

Results

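CFTR and 7 other genes for ion transport in pancreatic duct cells (ANO1, SLC26A6, SLC4A4, SLC12A2, KCNN4, KCNJ15 and CA2) were followed through 10 RNA-seq libraries of 2 pancreatic ductal adenocarcinoma cell lines. They were chosen by name for their role in ductal secretion, with earlier results of these data known. Counts of called members therefore only describe these genes. All 8 have a row among the 20289 genes of the deposited table. CFPAC-1 cells received 10 µM imidazole ketone erastin (IKE) or 0.1% DMSO for 24 h, with 2 libraries in each group, and PANC-1 cells received 1 µM IKE (4 libraries) or 0.1% DMSO (2 libraries) for 24 h. IKE, a derivative of erastin, inhibits the cystine-glutamate antiporter system xc-, which depletes glutathione and can trigger ferroptosis, a form of cell death in which membrane lipids are peroxidised with the help of iron. Dead cells and debris were removed before RNA was taken, so the IKE groups hold survivors only. In bulk RNA, fewer cells that express a gene and less of its RNA per cell cannot be told apart. The dose differs between the lines, so line and dose cannot be told apart in any comparison of their responses. CFPAC-1 was established from the tumour of a person with cystic fibrosis, the disease caused by loss of CFTR function. mRNA levels, which are all that was measured, say nothing of the function of the protein.

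Duct cells of the pancreas secrete a fluid rich in bicarbonate. Chloride and bicarbonate leave through apical channels and exchangers, among them CFTR, the channel opened by cAMP-dependent kinase, ANO1, the calcium-activated chloride channel, and SLC26A6, a chloride-bicarbonate exchanger. SLC4A4 (a sodium-bicarbonate cotransporter) and SLC12A2 (the sodium-potassium-chloride cotransporter NKCC1) load the cell from the basolateral side, CA2 is a cytosolic carbonic anhydrase that makes bicarbonate from carbon dioxide, and potassium channels such as KCNN4 (calcium-activated) and KCNJ15 (inward rectifier Kir4.2) keep the membrane potential that drives anions out.

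RefSeq promoter windows (GRCh38.p14), read here as the 250 bases before each annotated start, were found for 7 of the 8 genes, 12 windows in all. They were searched on both strands for the letters of the cAMP response element (TGACGTCA), AP-1 (TGANTCA), the C/EBP-ATF composite element bound by ATF4 (TGATGNAA) and the antioxidant response element bound by NRF2 (TGACNNNGC), a set that covers cAMP signalling and stress-responsive factors. Of the 12 windows 3 held a match, and those stretches of 30 bases are shown with the matching letters in capitals. The KCNJ15 stretch is chr21:38272461-38272490 on the plus strand, the SLC4A4 stretch chr4:71235972-71236001 on the plus strand, and the KCNN4 stretch chr19:43781177-43781206 on the minus strand.
KCNJ15, AP-1: gcttccccctgcTGAGTCAgttccccagat
SLC4A4, AP-1: aaggccagcatgTGACTCAaagcttgccac
KCNN4, antioxidant response element: accattgtgtgTGACAAAGCccatcgtgtg
In KCNJ15 the AP-1 letters, 35 to 29 bases before the start, also form part of an antioxidant response match on the other strand (GCTGAGTCA as read on the plus strand). In SLC4A4 the match belongs to 1 of 5 annotated starts. Annotated exons lie in 9 of the 12 windows, among them the 3 with a match, where they belong to the gene itself. The KCNJ15 window (38272258 to 38272507) lies inside the annotated span of the gene, 38155549 to 38307357, and not before it. The matched SLC4A4 and KCNN4 windows and the CFTR window also lie inside the spans of their genes. The ANO1 window (69985657 to 69985906) lies apart from the ANO1 span, which starts at 70078302. The AP-1 letters occur in 6.57% of 35116 promoter windows of the same length, the antioxidant response letters in 10.9%, the ATF4 composite letters in 3.14% and the cAMP response letters in 1.65%. A match describes letters only, and no match, as in the CFTR, ANO1, SLC26A6 and SLC12A2 windows, says only that these letters are not there. The window before the SLC12A2 start, chr5:128083516-128083765 on the plus strand, is shown whole because SLC12A2 was the member whose IKE interval lay below 0 in both lines, and because no annotated exon lies in it.
SLC12A2: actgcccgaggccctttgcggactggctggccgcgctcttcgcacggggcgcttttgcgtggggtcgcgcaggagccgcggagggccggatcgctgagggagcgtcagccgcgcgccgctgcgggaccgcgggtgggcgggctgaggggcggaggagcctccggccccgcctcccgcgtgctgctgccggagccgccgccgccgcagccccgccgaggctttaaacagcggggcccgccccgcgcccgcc

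Expression is given in FPKM (fragment counts normalised for the length of the gene and the size of the library), a unit per length in which levels of different genes can be compared. The libraries summed to between 405937 and 472665 FPKM and held between 11604 and 12248 genes at 1 FPKM or more. Their read depth is unknown. Replicate libraries correlated at 0.9925 to 0.9949 across genes (9 pairs, log2 scale), and at most 1.77% of genes had the same FPKM in a pair, so no library was a copy of another. The duct label was checked on 14 ductal marker genes, of which 12 reached 1 FPKM in CFPAC-1 and 9 in PANC-1, and their summed level was 8723 to 8987 FPKM in CFPAC-1 with DMSO, 7971 to 8091 FPKM with IKE, and 4973 to 5824 FPKM in PANC-1 libraries. The part of this lower ductal sum in the IKE values of CFPAC-1 was not tested. Among its keratins, KRT19 averaged 2221 FPKM in CFPAC-1 and 846 FPKM in PANC-1 with DMSO and KRT7 296 and 4.97 FPKM. KRT8 (2578 and 2877 FPKM) and KRT18 (1331 and 1627 FPKM) were the only markers of the list higher in PANC-1. With KRT19 they were the largest terms of the PANC-1 sum. Several other markers were far lower in PANC-1, among them SPP1 (528 and 0.29 FPKM), MMP7 (1150 and 2.06 FPKM), EPCAM (157 and 9.5 FPKM) and MUC1 (278 and 16.8 FPKM). CLDN4 (230 and 92.4 FPKM) and SOX9 (44.5 and 30.2 FPKM) differed less. None of 15 acinar markers reached 1 FPKM in any library, and of 11 islet markers the hormone genes INS, GCG, SST and PPY were at 0 throughout, while PAX6 reached 1.89 FPKM in CFPAC-1 and 1.17 FPKM in PANC-1, and CHGB 1.2 FPKM in PANC-1. Summed fibroblast markers lay at 8.86 to 13.0 FPKM in CFPAC-1 and 25.5 to 31.5 FPKM in PANC-1, and summed blood and endothelial markers at 100 to 106 and 25.6 to 33.4 FPKM.

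CFTR itself (ENSG00000001626, chromosome 7, 117465784 to 117715971, GRCh38 with GENCODE 29) was the lowest of the 8 genes in every group. CFTR stood at 0.93 and 0.70 FPKM in CFPAC-1 with DMSO and at 0.77 and 0.59 FPKM with IKE. In PANC-1 it was listed at 0 and 0.01 FPKM with DMSO, and at 0.01, 0, 0.11 and 0.04 FPKM with IKE. Every CFPAC-1 library thus lay above every PANC-1 library, while within each line the IKE and DMSO ranges overlapped. CFTR reached 1 FPKM in 0 of 10 libraries and so did not enter the test, which kept genes at 1 FPKM or more in at least 2 libraries. Fitted without that filter, CFTR was lower in PANC-1 with DMSO by a log2 change of -0.85 (adjusted p = 1e-05, limma), and its IKE changes were -0.11 in CFPAC-1 (adjusted p = 0.644) and 0.05 in PANC-1 (adjusted p = 0.837). All log2 values here are of FPKM + 1, a scale that understates the changes of low genes such as this one. The antisense gene CFTR-AS1 and the opposite-strand gene CTTNBP2 overlap CFTR in the annotation, and the sources used here do not state if counting was by strand, which leaves such low values uncertain.

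**Figure D1:**
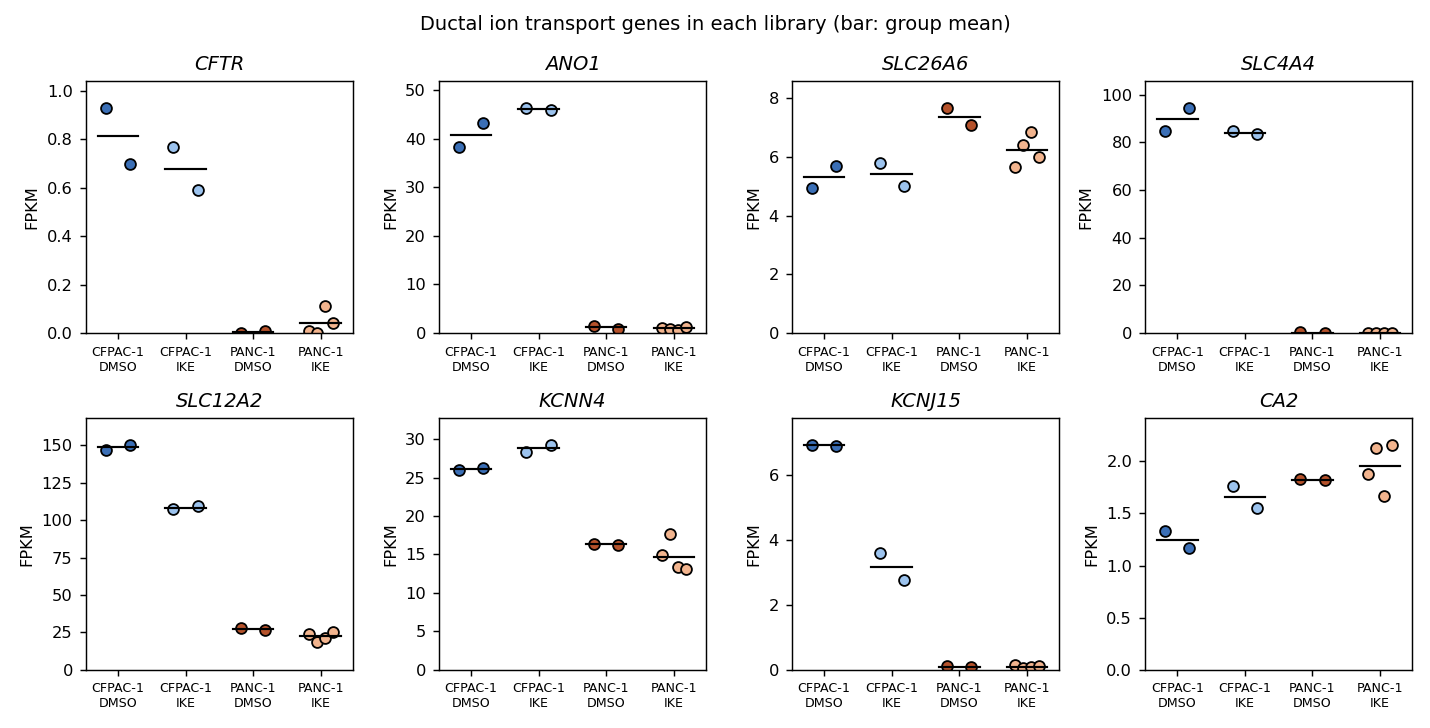
FPKM (vertical axes, each from 0 and with its own scale) of the 8 genes in each of the 10 libraries, 1 point per library in 4 groups, with bars at the group means. KCNJ15 and SLC12A2 show IKE points below both DMSO points in CFPAC-1. In PANC-1, CFTR, ANO1, SLC4A4 and KCNJ15 lie near 0 on these scales.

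With 10 µM IKE, KCNJ15 was the member that changed among the CFPAC-1 survivors. KCNJ15 (ENSG00000157551, chromosome 21, 38155549 to 38307357) was at 6.93 and 6.90 FPKM in the DMSO libraries and at 3.59 and 2.75 FPKM in the IKE libraries. The IKE libraries lay below both DMSO libraries, at 45.8% of the DMSO mean. In the annotation 5 other genes overlap KCNJ15, DSCR8 and DSCR10 on the same strand and 3 on the other, and their part in its values was not tested. The mean fell from 6.92 ± 0.0212 to 3.17 ± 0.594 FPKM (SD, n = 2 in each group), a log2 change of -0.93 (SE 0.11, adjusted p = 0.00128, limma over 13077 genes). The SE pools the spread of all 10 libraries, and the PANC-1 libraries, at 0.05 to 0.15 FPKM, have little spread on this scale. Fitted on CFPAC-1 alone, KCNJ15 was still called. The call was lost with a pseudocount of 0.1 (log2 change -1.11, adjusted p = 0.113, limma). Of the 7 members tested 1 was called, and it was lower, in a comparison where 1.32% of all tested genes were called, 0.864% as higher and 0.459% as lower. The median log2 change was 0.02 over the 7 tested members and 0.0 over all tested genes.

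SLC12A2 (ENSG00000064651, chromosome 5, 128083766 to 128189688), the basolateral chloride loader, had the next largest difference. It stood at 147 and 150 FPKM with DMSO and at 108 and 109 FPKM with IKE, so the groups did not overlap and the IKE mean was 72.8% of the DMSO mean. The difference of -0.45 on the log2 scale (95% interval -0.70 to -0.21) had an unadjusted p = 0.00193 and an adjusted p = 0.0801 in limma, and so did not pass. It passed when CFPAC-1 was fitted alone, when PANC-1 IKE replicates 1 and 2 were left out, or without PANC-1 IKE replicate 2, with the log2 change between -0.47 and -0.42 over all alternatives (adjusted p from 0.007 to 0.309).

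The other members of the secretory route did not pass in CFPAC-1. The calcium-activated chloride channel gene ANO1 (ENSG00000131620, chromosome 11, 70078302 to 70189528) was at 38.3 and 43.2 FPKM with DMSO and at 46.3 and 46.0 FPKM with IKE (0.18, 95% interval -0.16 to 0.52, adjusted p = 0.695, limma). KCNN4 (ENSG00000104783, chromosome 19, 43766533 to 43781261) went from 25.9 and 26.2 FPKM to 28.4 and 29.3 FPKM (0.14, interval -0.12 to 0.40, adjusted p = 0.682). The IKE libraries of both channels lay above the DMSO libraries, by amounts that the intervals do not separate from 0. The bicarbonate loader SLC4A4 (ENSG00000080493, chromosome 4, 71062667 to 71572087) held 84.9 and 94.4 FPKM with DMSO against 84.7 and 83.4 FPKM with IKE (-0.09, interval -0.32 to 0.14, adjusted p = 0.783). The exchanger gene SLC26A6 (ENSG00000225697, chromosome 3, 48625723 to 48635493) held 4.96 and 5.71 FPKM against 5.81 and 5.01 FPKM (0.02, interval -0.24 to 0.27, adjusted p = 0.979). For SLC26A6 the groups overlapped. CA2 (ENSG00000104267), the carbonic anhydrase, was low in this line, at 1.33 and 1.17 FPKM with DMSO and 1.76 and 1.55 FPKM with IKE (0.24, interval -0.01 to 0.49, adjusted p = 0.388).

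**Figure D2:**
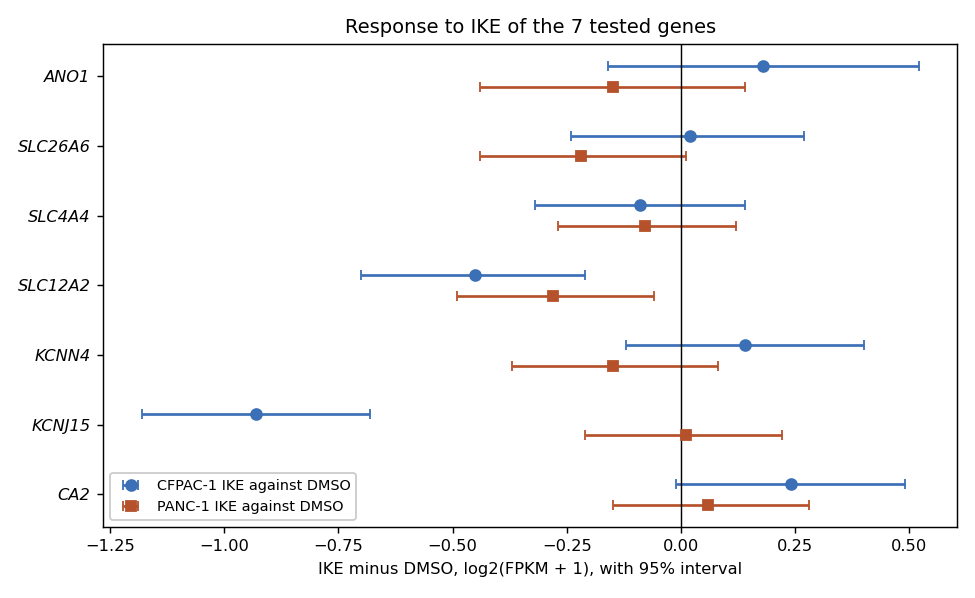
Difference between IKE and DMSO in log2(FPKM + 1) with its 95% interval (horizontal axis) for the 7 tested genes, in CFPAC-1 (circles) and PANC-1 (squares). KCNJ15 in CFPAC-1 stands apart at -0.93, the SLC12A2 intervals lie below 0 in both lines, and the other intervals include 0.

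Among PANC-1 survivors of 1 µM IKE, limma called 0 of the 7 tested members, and 1 had an unadjusted p under 0.05. Of all genes 2.38% were called, 1.21% as higher and 1.17% as lower. SLC12A2 was again lower, at 28.0 and 26.3 FPKM with DMSO and 24.1, 18.7, 21.4 and 25.1 FPKM with IKE. Each of the 4 IKE libraries lay below both DMSO libraries, with a log2 change of -0.28 (95% interval -0.49 to -0.06, unadjusted p = 0.0156, adjusted p = 0.167, limma). SLC26A6 was at 7.67 and 7.09 FPKM with DMSO and at 5.65, 6.42, 6.85 and 5.99 FPKM with IKE, also without overlap (-0.22, interval -0.44 to 0.01, adjusted p = 0.299).

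KCNN4 was at 16.3 FPKM in both DMSO libraries and at 14.9, 17.6, 13.3 and 13.1 FPKM with IKE, so that 1 IKE library lay above and 3 below (-0.15, interval -0.37 to 0.08, adjusted p = 0.50). With PANC-1 IKE replicates 3 and 4 alone it passed as lower (-0.28, adjusted p = 0.0452, limma). CA2 was at 1.83 and 1.82 FPKM with DMSO and between 1.67 and 2.16 FPKM with IKE (0.06, interval -0.15 to 0.28, adjusted p = 0.803). ANO1, at 1.51 and 0.87 FPKM with DMSO, ran from 0.71 to 1.18 FPKM with IKE (-0.15, interval -0.44 to 0.14, adjusted p = 0.62). SLC4A4 lay at 0.24 and 0.15 FPKM with DMSO and at 0.06 to 0.19 FPKM with IKE, and KCNJ15 at 0.11 and 0.07 FPKM with DMSO and at 0.05 to 0.15 FPKM with IKE. Both are near 0 in this line, where a fall could hardly show on this scale.

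The response of KCNJ15 differed between the lines by 0.94 on the log2 scale (SE 0.15, 95% interval 0.61 to 1.27, adjusted p = 0.0229, limma), PANC-1 minus CFPAC-1. That makes 1 of 7 tested members called, as higher, where 0.336% of all genes were called, 0.107% as higher and 0.229% as lower. KCNJ15 had almost no mRNA to lose in PANC-1, at a mean of 0.09 ± 0.0283 FPKM with DMSO (n = 2), so the difference repeats its fall in CFPAC-1 rather than adding a second measurement. The call was lost under 11 of 19 alternatives (adjusted p from 0.009 to 0.286 over all 19), without any change of sign. For SLC12A2 the difference of responses was 0.18 (interval -0.15 to 0.50, adjusted p = 0.678), so its lower values in the 2 lines were not shown to differ in size.

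Set against CFPAC-1 without drug, PANC-1 had SLC4A4 and KCNJ15 near 0 and ANO1 low, at a mean of 1.19 FPKM. SLC12A2 and KCNN4 were lower but well expressed, and SLC26A6 and CA2 somewhat higher. SLC4A4 fell furthest, from 89.7 ± 6.71 FPKM in CFPAC-1 to 0.195 ± 0.0636 FPKM in PANC-1 (SD, n = 2 each; log2 change -6.24, SE 0.10, adjusted p = 7.56e-13, limma). ANO1 was at 40.7 ± 3.44 and 1.19 ± 0.453 FPKM, 34.2-fold higher in CFPAC-1 (-4.26, SE 0.15, adjusted p = 2.94e-10). KCNJ15 was at 6.92 FPKM in CFPAC-1 and 0.09 FPKM in PANC-1 (-2.86, SE 0.11, adjusted p = 6.46e-10, or -5.21 with a pseudocount of 0.1). Like CFTR, SLC4A4 and KCNJ15 thus belong to the genes that PANC-1 has at under 1 FPKM in all its libraries. Both passed the low-value filter through CFPAC-1 alone, which bears on their adjusted p-values between the lines and on any count of called members.

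SLC12A2 averaged 149 ± 2.38 FPKM in CFPAC-1 and 27.1 ± 1.24 FPKM in PANC-1, 5.48-fold apart (-2.41, SE 0.11, adjusted p = 2.75e-09, limma). KCNN4 averaged 26.1 ± 0.177 and 16.3 ± 0.0141 FPKM, 1.60-fold apart (-0.65, SE 0.12, adjusted p = 0.000334). SLC26A6 and CA2 were higher in PANC-1, SLC26A6 at 7.38 ± 0.410 against 5.34 ± 0.530 FPKM (0.41, SE 0.12, adjusted p = 0.00743) and CA2 at 1.83 ± 0.00707 against 1.25 ± 0.113 FPKM (0.33, SE 0.11, adjusted p = 0.0186). The median of all tested genes was itself 0.12 higher in PANC-1. CA2 lost its call with median-ratio scaling and without CFPAC-1 DMSO replicate 2, PANC-1 DMSO replicate 1 or PANC-1 DMSO replicate 2, and SLC26A6 without CFPAC-1 DMSO replicate 1 or PANC-1 DMSO replicate 1 (adjusted p up to 0.0931 and 0.0666), with the same sign throughout.

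All 7 tested members were called between the lines, 2 as higher and 5 as lower in PANC-1. As 78.7% of all tested genes were called, 43.4% as higher and 35.2% as lower, and SLC4A4 and KCNJ15 entered the test only through CFPAC-1, that count is no result about the members.

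**Figure D3:**
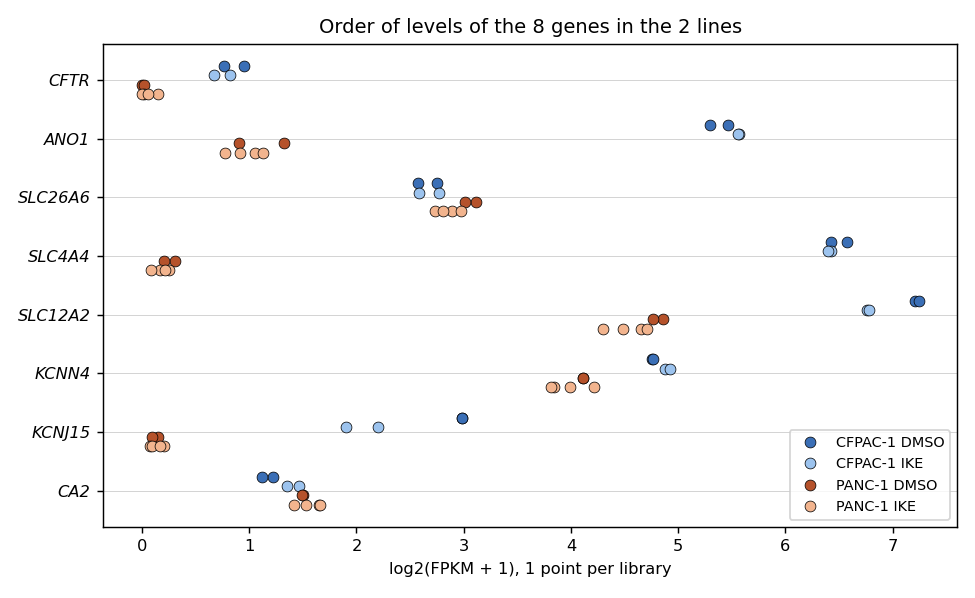
Level of the 8 genes as log2(FPKM + 1) (horizontal axis), 1 point per library, coloured by group. The CFPAC-1 and PANC-1 points are far apart for SLC4A4, ANO1, KCNJ15 and SLC12A2 and close for KCNN4, SLC26A6 and CA2.

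The order of levels within a line shows which members made up the mRNA of the route. In CFPAC-1 with DMSO it ran SLC12A2, SLC4A4, ANO1, KCNN4, KCNJ15, SLC26A6, CA2 and CFTR, with no overlap between neighbours. With IKE the order in CFPAC-1 differed in 1 place, KCNJ15 lying below SLC26A6. In PANC-1 with DMSO it ran SLC12A2, KCNN4, SLC26A6, CA2, ANO1, SLC4A4, KCNJ15 and CFTR. Neighbours overlapped only among the PANC-1 IKE libraries, for SLC4A4 with KCNJ15 and KCNJ15 with CFTR, all of them near 0. SLC12A2 led in every group.

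Genes with the most similar pattern were named by Pearson's r of log2(FPKM + 1) over the 10 libraries, as a description. The libraries fall into 2 lines that differ in most genes, so a high r mainly reflects the step between the lines. Nearest to KCNJ15 were FBXO39 (r = 0.998), HLA-DOB (0.9975) and CDC27 (0.9962). FBXO39 averaged 2.17 FPKM in CFPAC-1 with DMSO, 1.2 with IKE and 0 to 0.0125 in the PANC-1 groups, and HLA-DOB 3.31, 1.85, 0.10 and 0.138 FPKM. CDC27 averaged 97.2 and 82.9 FPKM in CFPAC-1 and 56.5 and 53.8 FPKM in PANC-1, so it shared the order of the groups but not the near absence from PANC-1. Nearest to SLC12A2 were CMPK1 (0.999), ZNF618 (0.9979) and CDC42SE2 (0.9978). For SLC4A4 they were PROM1, TMPRSS4 and SLC22A3 (0.9999 each), and for ANO1 FAM83E (0.9992), IFI27 (0.9991) and GPR35 (0.9991). For KCNN4 they were PEX6 (0.9945), KDELR1 (0.9932) and JADE2 (0.9919). Likeness was lower for the 2 genes with small steps, SLC26A6 with ACAD8 (0.9506), SPTSSB (0.9352) and TCEA3 (0.9341), and CA2 with FHL3 (0.935), RAB40C (0.9303) and STK32C (0.9243).

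Around the 8 genes, 200 further genes of ductal secretion were read in 8 lists, and 146 of them were tested. In CFPAC-1 with IKE 2 rose and 1 fell (2.05% of those tested, against 1.32% of all genes), and in PANC-1 3 rose and 2 fell (3.42% against 2.38%). Shares near the background like these are no result about the lists. Among 10 other apical chloride and bicarbonate genes (5 tested), 19 of basolateral chloride entry and the sodium pump (13 tested), 12 sodium and water channels (8 tested), 45 receptors and messengers of cAMP and calcium signalling (33 tested) and 16 WNK and SPAK kinase genes (15 tested), none was called with IKE in either line by limma.

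The called genes came from 3 lists. In the list of bicarbonate loading, proton export and carbonic anhydrases (18 of 28 tested), CA9, a membrane carbonic anhydrase known as a hypoxia target, rose in CFPAC-1 from 1.83 and 1.39 FPKM to 3.67 and 3.46 FPKM (0.81, SE 0.15, adjusted p = 0.024, limma). In PANC-1 CA9 was at 0 to 0.55 FPKM. SLC4A11, a membrane transporter of the bicarbonate carrier family, fell in PANC-1 from 45.1 and 47.8 FPKM to 29.5, 35.9, 36.0 and 35.6 FPKM (-0.43, adjusted p = 0.0364). CA9 lost its call without any 1 of the 4 CFPAC-1 libraries and with either pair of PANC-1 IKE libraries alone. SLC4A11 lost its call under 12 of 20 alternatives, among them without either PANC-1 DMSO library, PANC-1 IKE replicates 1 or 4, or any 1 CFPAC-1 library.

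Among CFTR scaffolds, folding and turnover genes (42 of 43 tested), the chaperone gene HSPA8 rose in both lines, from 252 ± 2.74 to 338 ± 1.96 FPKM in CFPAC-1 (n = 2 each; 0.42, adjusted p = 0.0131, limma) and from 906 ± 3.77 to 1191 ± 66.3 FPKM in PANC-1 (n = 2 and 4; 0.39, adjusted p = 0.00834). EZR, which encodes ezrin, the linker of apical membrane proteins to actin, fell in CFPAC-1 from 325 and 321 FPKM to 263 and 258 FPKM (-0.31, adjusted p = 0.0209). In PANC-1 EZR was at 106 FPKM in both DMSO libraries and at 117 to 125 FPKM with IKE, and the difference of its responses was called (0.52, adjusted p = 0.0176), the only one of the 146 tested genes (0.685%). STX3, an apical membrane fusion protein gene, rose in PANC-1 (0.54, adjusted p = 0.0212), and so did CALR, the endoplasmic reticulum chaperone calreticulin (0.28, adjusted p = 0.0297). The calls of HSPA8 and EZR in CFPAC-1 were lost without any 1 of its 4 libraries, those of HSPA8, STX3 and CALR in PANC-1 without either DMSO library, and that of CALR also without PANC-1 IKE replicates 1 or 4 or any 1 CFPAC-1 library. Quantile normalization ended the calls of HSPA8 in CFPAC-1 (0.42) and in PANC-1 (0.16) and that of CALR in PANC-1 (0.17). The difference of EZR responses lost its call without any 1 CFPAC-1 or PANC-1 DMSO library.

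Potassium channels were read as a family because KCNJ15 belongs to it. Of 29 epithelial potassium channel genes 14 were tested, and 18 stayed under 1 FPKM in all CFPAC-1 libraries and 22 in all PANC-1 libraries. KCNJ15 was the one called with IKE in CFPAC-1. KCNK5, a two-pore channel gene and the most abundant of the family there, had 38.4 and 39.5 FPKM with DMSO and 29.7 and 28.5 FPKM with IKE (-0.41, not called). KCNN2 (-0.31) and KCNE3 (-0.33) also had IKE libraries below their DMSO libraries without a call, while KCNK1 (-0.05) hardly differed. In PANC-1 the acid-sensitive channel gene KCNK3 fell from 6.31 and 5.29 FPKM to 4.05, 4.52, 3.57 and 3.62 FPKM (-0.46, adjusted p = 0.0455, limma), a call lost under 15 of 20 alternatives, including each omission of 1 library except that of PANC-1 IKE replicate 2. Between the lines with DMSO, KCNMB3 (6.35 and 6.37 FPKM in CFPAC-1 and PANC-1) had a log2 change of 0.0, while other channel genes were far apart. KCNMA1, the large-conductance calcium-activated channel, averaged 72.3 FPKM in PANC-1 and 0.275 FPKM in CFPAC-1 with DMSO (5.85, adjusted p = 7.96e-13), with KCNK3 (2.76) also higher in PANC-1. KCNK5 (-4.42, adjusted p = 8.82e-12, limma), KCNK1 (-3.22) and KCNN2 (-3.02) were higher in CFPAC-1. KCNK5 reached 1 FPKM in PANC-1 only in IKE replicate 1, at 1.17 FPKM. KCNMA1 and KCNK3 passed the low-value filter through PANC-1 alone, and KCNK5, KCNK1 and KCNN2 through CFPAC-1 alone. That bears on their adjusted p-values between the lines. KCNN4 was the channel gene of the 8 members that both lines had above 10 FPKM.

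**Figure D4:**
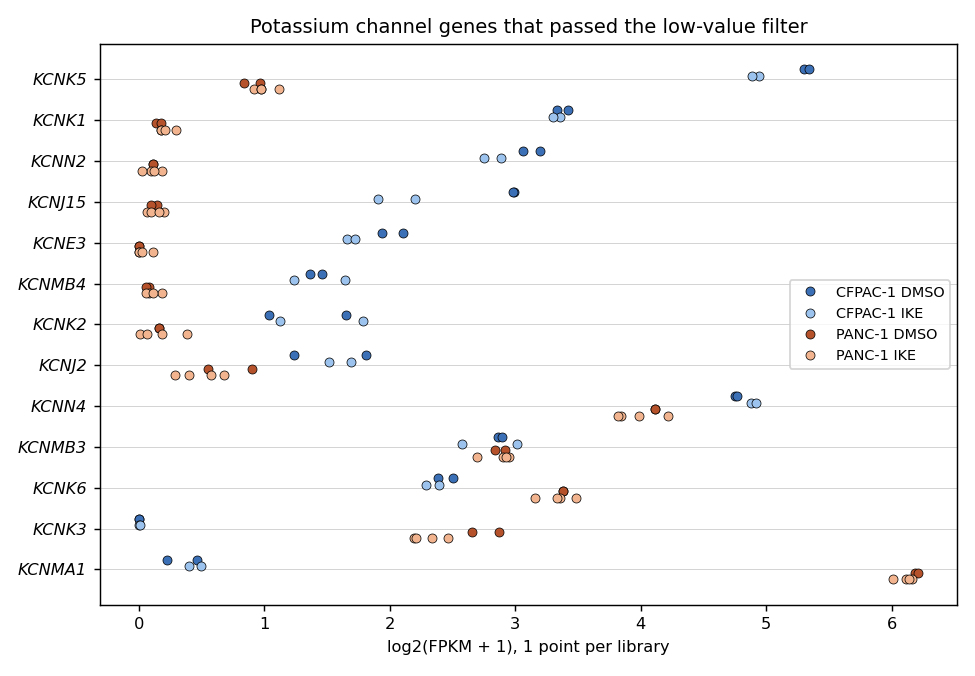
Level of 13 of the 14 tested potassium channel genes as log2(FPKM + 1) (horizontal axis), 1 point per library, coloured by group and ordered by the step between the lines. KCNK5, KCNK1, KCNN2 and KCNJ15 lie to the right in CFPAC-1, KCNMA1 and KCNK3 in PANC-1, and KCNN4 is present in both.

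In the lists, 127 of the 146 tested genes were called between the lines with DMSO (87.0%, against 78.7% of all genes), 66 as higher and 61 as lower in PANC-1. Of the 146 genes, 13 were under 1 FPKM in all CFPAC-1 libraries and 21 in all PANC-1 libraries. These were tested only through the line where they are high, among them FXYD2, AQP5, SCNN1B and KCNK3. The same holds for genes at 1 FPKM or more in only 1 library of the low line, which these counts leave out. SLC26A11 (at most 1.15 FPKM in CFPAC-1) and KCNK5 (at most 1.17 FPKM in PANC-1) are such genes. That bears on the adjusted p-values of all these genes, and the count of 127 is no result about the lists. A place in a list is not a measured function. In the list of apical chloride and bicarbonate routes, the volume-regulated channel subunit gene LRRC8A (-2.32) and the chloride transporter gene SLC26A9 (-1.74) were lower in PANC-1. From the same list TTYH3 (1.74), SLC26A11 (1.71) and CLCN2 (0.75) were higher (adjusted p from 4.76e-10 to 0.000141 over all of these, limma). In the list of bicarbonate loading, proton export and carbonic anhydrases, the sodium-bicarbonate cotransporter gene SLC4A7 averaged 59.3 FPKM in PANC-1 and 4.29 FPKM in CFPAC-1 (3.51). SLC4A11 (3.56) and CA8 (2.97) were higher in PANC-1 too, and CA12 (-1.78), SLC9A8 (-1.75) and CA9 (-0.99) were lower. SLC4A7 and SLC4A4 thus stood in opposite order in the 2 lines.

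Of the chloride and sodium pump list, FXYD2, a regulator of the sodium pump, averaged 94.1 FPKM in CFPAC-1 and 0.045 FPKM in PANC-1 with DMSO (-6.51, adjusted p = 4.55e-13, limma). FXYD3 (-3.95) and FXYD6 (-2.99) were lower in PANC-1 as well, while the potassium-chloride cotransporter gene SLC12A7 (2.44) and the pump subunit gene ATP1B3 (1.45) were higher. AQP5, an apical water channel, averaged 126 FPKM in CFPAC-1 and 0.065 FPKM in PANC-1 (-6.90, adjusted p = 5.48e-13). The sodium channel subunit gene SCNN1A (-3.04) and the water channel gene AQP3 (-1.91) were lower in PANC-1, and the other subunits SCNN1B (2.00) and SCNN1G (1.06) were higher. The purinergic receptor genes P2RX4 (-2.86) and P2RY2 (-2.67) and the cAMP phosphodiesterase gene PDE4D (-2.86) were lower in PANC-1, and the calcium release channel genes ITPR1 (3.30) and ITPR2 (3.52) and the kinase subunit gene PRKACB (1.99) were higher.

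Among genes that fold or carry CFTR, EZR (-1.61), the apical recycling motor gene MYO5B (-3.23) and VAMP8 (-1.19) were lower in PANC-1, and the chaperone genes DNAJA1 (2.11), HSPA8 (1.84) and DNAJB6 (1.33) were higher (all adjusted p at most 1.98e-07, limma). Of the kinase list, WNK2 (2.41), WNK1 (1.07) and CUL3 (0.91) were higher and WNK4 (-1.29), KLHL2 (-1.20) and SGK1 (-1.75) lower in PANC-1.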

How the data were processed

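Total RNA was depleted of rRNA and made into strand-marking libraries, per the labels' protocols. The submitters' processing notes name StringTie 1.3.4, HISAT2 2.1.0, DESeq2, fastp 0.18.0 and Bowtie2 2.2.8, and the build GRCh38. Their roles, gene models and filters are not stated there. The authors deposited FPKM values, rounded to 2 decimals; counts are not in the table, so counting error cannot be given. The table also has 9 empty columns, left aside. The sample titles call the replicates bioreplicates without naming separate cultures, so p-values measure the spread between these samples.

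The 13077 genes that reached 1 FPKM in 2 or more libraries were fitted as log2(FPKM + 1) with limma 3.58.1 in R 4.3.3, 1 mean per group over all 10 libraries and an intensity trend (residual df 6, prior df 5.1). All p-values are two-sided, adjusted by Benjamini-Hochberg over all tested genes, with a threshold of 0.05. The fit was tested on simulated data. Named were the 8 members, up to 3 called genes per list, direction and comparison, and the 3 genes most similar to each member; channels and duct markers cited beyond these were picked after their values were seen. Members and lists were chosen with earlier results of these data known. Alternatives were 2 other scalings, 2 other filters, a pseudocount of 0.1, no trend, the replicate block, a fit of only the groups compared, either pair of PANC-1 IKE libraries, and each library left out. Some genes of the lists, counted in their totals, are not reported here by name.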

Additional observations from a re-analysis of the deposited data

Results flagged for a closer look

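KCNJ15 had a response to IKE that differed between the lines in limma, by 0.94 on the log2 scale, with PANC-1 near 0 in every library, and the response of EZR differed by 0.52. In the 4 PANC-1 IKE libraries, 56 genes named in the text were each looked at for a library far from the rest, and 4 had one, where chance gives about 1 in 20. SLC4A11 was at 29.5 FPKM in replicate 1 and at 35.56 to 36.04 FPKM in the others. STX3 was at 25.83 FPKM in replicate 4 and at 20.13 to 20.86 FPKM in the others. CALR was at 509.84 FPKM in replicate 2 and at 462.01 to 463.44 FPKM in the others. VAMP8 was at 56.9 FPKM in replicate 1 and at 67.06 to 67.65 FPKM in the others. None of the 8 ion transport genes had such a library.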

How the results depend on the processing

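Number of the 8 members called in limma, as first reported and under the alternatives. CFPAC-1 IKE against DMSO gave 1, which became 0 with a pseudocount of 0.1, 2 (KCNJ15 and SLC12A2) in a fit of CFPAC-1 alone and 2 with PANC-1 IKE replicates 3 and 4 alone, and 1 to 2 with single libraries left out. PANC-1 IKE against DMSO gave 0, which became 1 (KCNN4) with replicates 3 and 4 alone, and was 0 with any single library left out. The difference between the lines gave 1, which became 0 with a pseudocount of 0.1, with the replicate block, and with either pair of PANC-1 IKE libraries alone, and 0 to 1 with single libraries left out. PANC-1 against CFPAC-1 gave 7, and 5 to 7 with single libraries left out. The cause was not tested, beyond the fewer samples in some fits. Same-numbered libraries share only a number: their deviations correlated at -0.00145 in CFPAC-1 (1 value for both numbers), and at 0.118 and -0.0266 in PANC-1. The replicate block moved all calls from 173 to 119 in CFPAC-1, from 311 to 149 in PANC-1 and from 44 to 15 for the difference, and cost no other comparison a call among the members. Of other genes it ended the calls of EZR in CFPAC-1 (adjusted p = 0.0597, limma), SLC4A11 (0.0698), KCNK3 (0.207), STX3 (0.0574) and CALR (0.0666) in PANC-1, and the difference of EZR (0.0928). Over all genes, 173 calls in CFPAC-1 became 262 with quantile normalization and 80 to 256 with single libraries left out, and 311 in PANC-1 became 189 in a fit of PANC-1 alone, 172 and 471 with its IKE replicates 1 and 2 or 3 and 4, and 42 to 504. The 44 calls of the difference became 17 and 69 with these pairs and 13 to 62. Signs turned for uncalled values only. SLC26A6 in CFPAC-1 was -0.07 to 0.11 with single libraries left out, ANO1 in PANC-1 -0.36 to 0.06, KCNJ15 in PANC-1 -0.02 to 0.04, and the difference of SLC4A4 -0.06 to 0.09. That difference was also -0.04 with quantile normalization, -0.27 with a pseudocount of 0.1 and -0.02 with PANC-1 IKE replicates 3 and 4 alone. Of 1637 alternative values of single genes, 1528 kept sign and call, 93 lost and 4 gained a call, and 12 changed sign. A fit of only the groups compared equals the reported one for the difference, and was not run again.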
